A study of Mus musculus with 6 samples.

Results

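The genes described here are the matrix metalloproteinases (MMPs), the ADAMTS proteases and the tissue inhibitors of metalloproteinases (TIMPs). Members were taken by symbol, as every gene called Mmp, Adamts or Timp followed by a number among the genes with a probe on the array. This gave 45 genes, made up of 22 MMPs, 19 ADAMTS genes and 4 TIMPs, of 37074 genes and transcripts with a probe, 20660 of which had a symbol. The rule reads symbols only and uses no measured value. A total of 37 members gave signal on enough arrays to be tested, and 8 did not.

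MMPs are zinc-dependent endopeptidases, most of them secreted as inactive proenzymes, which cut collagens, elastin, proteoglycans and other matrix proteins. ADAMTS proteases are secreted relatives with thrombospondin repeats. They process procollagens, cut large proteoglycans such as versican and aggrecan, and trim fibrillin-associated and blood proteins. TIMPs block the active site of MMPs and of some ADAMTS proteases. In growing fat the balance of proteases and inhibitors is known to shape the collagen network around fat cells, the vessels and the precursor cells.

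The series addressed what propolis, a resin collected by honey bees, does to the stromal vascular fraction of visceral fat in obese mice. Total RNA from that fraction of the mesenteric fat of male C57BL/6JHamSlc-ob/ob mice was measured on 1-colour Agilent arrays, 3 for propolis and 3 for vehicle. The propolis group was injected intraperitoneally with Brazilian propolis, 100 mg/kg at each of 2 weekly injections, over 12 weeks. The vehicle group received the carrier, which held a little DMSO and ethanol, over the same 12 weeks. Mice of both groups carry the ob/ob mutation of the leptin gene, and no lean group was analysed here. Their age and the number of mice behind each sample are not given in the sources used here, so p-values measure the spread between these samples. The fraction is what remains after collagenase digestion of the fat and lysis of red cells, so it mixes precursor cells, fibroblasts, immune cells, vessel cells and mesothelium. In such bulk RNA, fewer cells of a type and less RNA per cell cannot be told apart.

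The 75th percentile of intensity ran from 459.4 to 729.0 units per array, and between 61.1% and 66.7% of 59305 spots stood well above background. No spot was saturated, and the number of arrays limits the precision. Slide 1 held replicates 1 and 2 of both groups and slide 2 held replicate 3 of both. Adipose progenitor and fibroblast markers were bright on every array, with a list mean of 5.92 to 6.12 in propolis arrays and 5.79 to 5.87 in vehicle arrays over 10 genes. Vehicle 3 stood apart with intestinal epithelial markers, whose list mean over 8 genes was 4.85 there and between -3.61 and -0.29 elsewhere. Vehicle 2 stood apart with pancreatic acinar markers, at 4.64 there and between -3.32 and -2.47 elsewhere over 6 genes, and it had the highest B cell list mean, 1.67. All gene values below are log2 intensities relative to the 75th percentile of their array, in the order replicate 1, 2 and 3, and differences are propolis minus vehicle on that log2 scale. Values compare arrays for 1 probe and do not rank genes by level.

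Across the family, most members had higher means in propolis arrays, while the single member that passed the test was lower. Of 37 members tested, 26 had a higher mean in the propolis group (70.3%, against 49.6% of all 25777 genes and transcripts tested). With limma and Benjamini-Hochberg adjustment over all of these at 0.05, 0 members rose and 1, Mmp12, fell. The same test called 0.722% of all genes higher and 0.113% lower, 0.834% in either direction. Here and below, all genes means the 25777 genes and transcripts tested, of which 15772 had a symbol. At an unadjusted limma p under 0.05, 10 members were higher (27.0%, against 7.24% of all genes) and 2 were lower (5.41%, against 4.48%). The 3 propolis values lay wholly above the 3 vehicle values for 11 members (29.7%, against 10.8% of all genes) and wholly below for 1 (against 6.62%). A difference of at least 1 log2 unit in size was seen for 17 members (45.9%, against 7.69%), and the median difference was 0.53 over the members and -0.0041 over all genes.

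By class, of 17 ADAMTS genes, 14 had a higher mean in propolis arrays (82.4%, against 49.6% of all genes) and the median difference was 0.64. All 6 ADAMTS genes with an unadjusted p under 0.05 were higher (35.3%, against 7.24% of all genes), and none passed after adjustment. Of 16 MMPs, 10 had a higher mean (62.5%), with a median difference of 0.31. The 4 with an unadjusted p under 0.05 were split into 2 higher (12.5%) and 2 lower (12.5%, against 4.48% of all genes). Of the 4 TIMPs, 2 had a higher and 2 a lower mean. With vehicle 2 and vehicle 3 both left out, 4 members were higher and 1 lower at an unadjusted p under 0.05, when 5.28% of all genes passed that threshold in either direction. Without propolis 1 they were 14 and 2, when 9.46% of all genes passed.

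**Figure D1:**
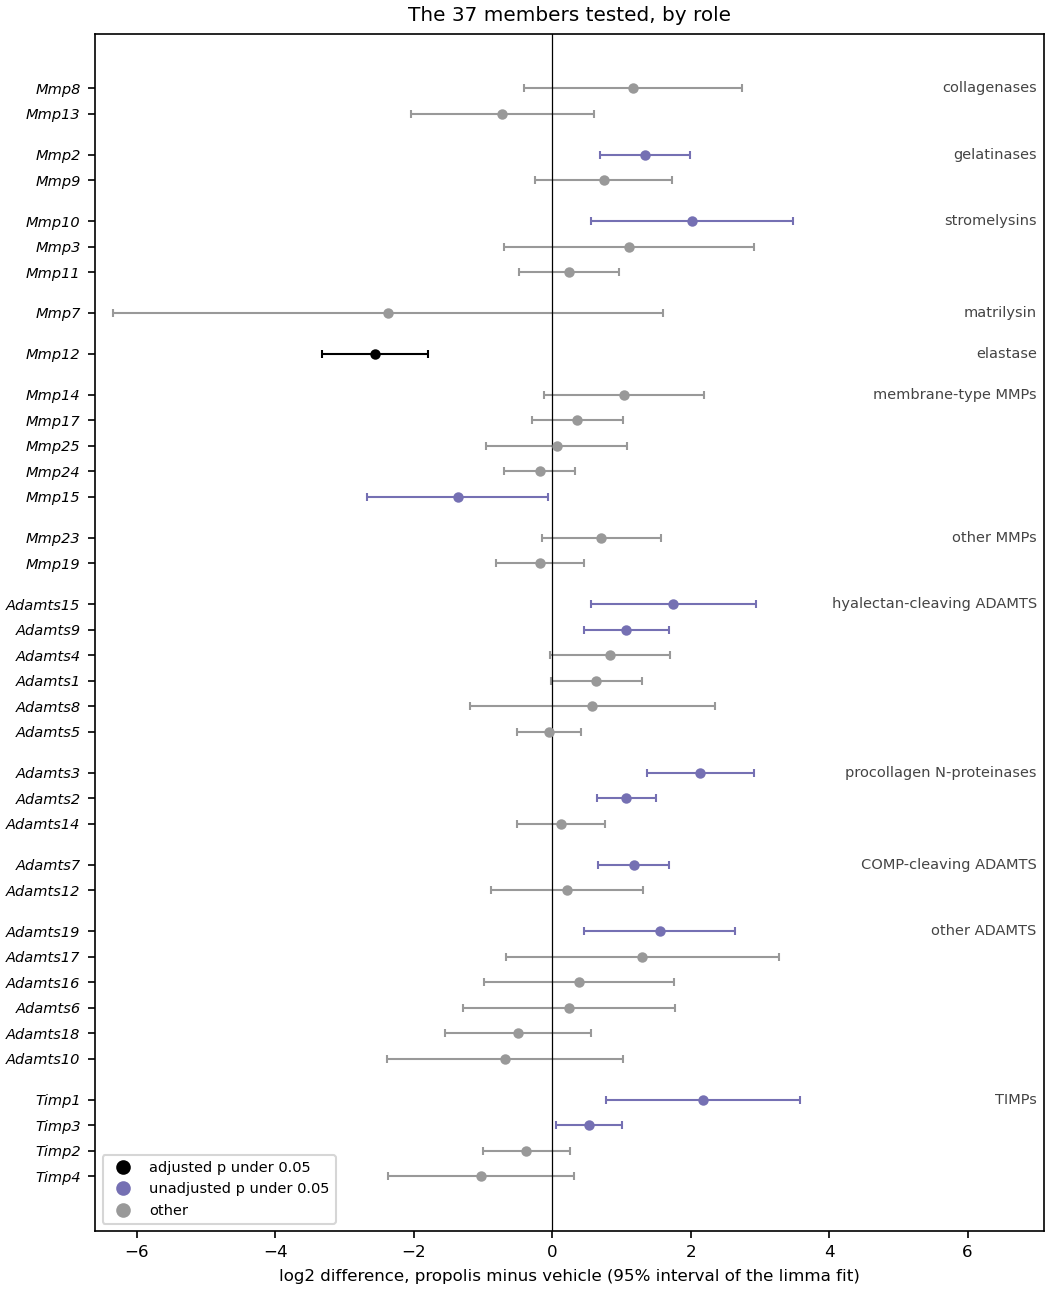
Each point is the log2 difference of a tested member, propolis minus vehicle, with the 95% interval of the limma fit (3 arrays per group), and members are grouped down the page by role. Mmp12, at -2.56, is the only point past an adjusted p of 0.05, and 26 of the 37 points lie right of 0.

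Mmp12, the macrophage elastase, gave the lowest difference of the family. It read -0.59, -0.43 and 0.48 in propolis arrays, against 2.32, 2.19 and 2.63 in vehicle arrays. Every propolis array was below every vehicle array. Its mean was -0.18 ± 0.57 in the propolis group and 2.38 ± 0.23 in the vehicle group (SD, n = 3 each), a difference of -2.56 with a standard error of 0.32. That is 5.90-fold lower in propolis arrays, with a limma adjusted p of 0.0307. On slide 1 the difference was -2.76 and on slide 2 it was -2.15, and with slide as a block the adjusted p was 0.0173. A second Mmp12 probe differed by -3.82 with an adjusted p of 0.0917, when every probe was tested on its own, and stood above background on 1 of 3 propolis arrays and 3 of 3 vehicle arrays. Leaving out 1 array at a time, the adjusted p ran from 0.0265 to 0.130 and passed only without propolis 3. An exact permutation test of 3 arrays against 3 cannot give a p below 0.1.

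Markers of lipid-associated macrophages, the cells that gather around dying fat cells and take up their lipid, were also lower in propolis arrays. Their list mean lay between 3.88 and 4.05 in propolis arrays and between 4.57 and 5.10 in vehicle arrays, with all 8 genes tested and 7 of them lower. Itgax, which encodes the integrin CD11c, and Lgals3, a galectin, fell, with differences of -2.18 and -1.15 and a limma adjusted p of 0.0405 for each. Spp1, the matrix protein osteopontin, ran the other way with a difference of 1.56 (limma adjusted p = 0.288). The general macrophage list overlapped between groups, at 3.21 to 3.43 in propolis arrays and 2.83 to 3.33 in vehicle arrays over 7 of 8 genes. The part of these cells in the Mmp12 difference was not tested.

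**Figure D2:**
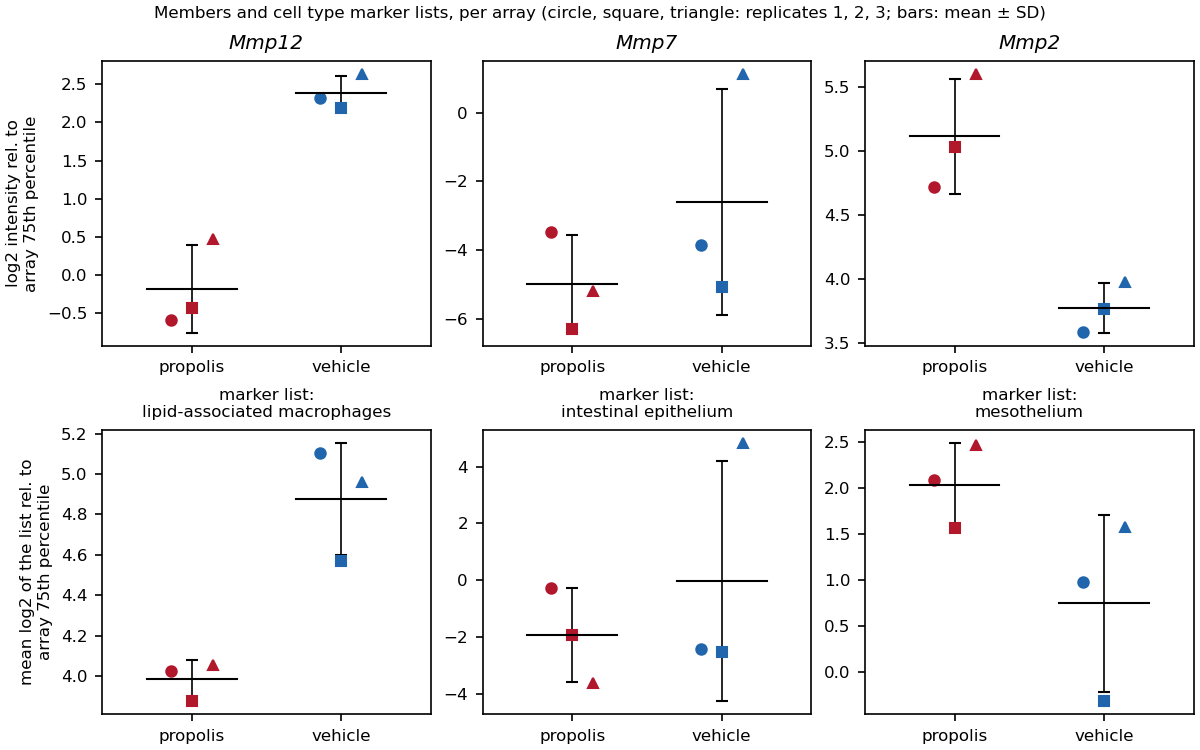
The upper panels plot Mmp12, Mmp7 and Mmp2 per array, as log2 intensity relative to the 75th percentile of the array, and the lower panels plot the mean of the lipid-associated macrophage, intestinal epithelium and mesothelium marker lists on the same arrays, each with mean and SD. Mmp12 and the lipid-associated macrophage list are lower on all 3 propolis arrays, and vehicle 3 is the highest array for both Mmp7 and the intestinal list. Mmp2 does not overlap between groups, while the mesothelium list does, with vehicle 3 at 1.573 above propolis 2 at 1.560. The progenitor and fibroblast list is not plotted.

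Mmp12 lies in a run of MMP genes on chromosome 9. In the RefSeq table the order is Mmp13, Mmp12, Mmp1b, Mmp3, Mmp1a, Mmp10, Mmp8, Mmp27, Mmp20 and Mmp7, with 0 other protein-coding genes between them. A total of 6 of these were tested, Mmp27 had no probe, and Mmp1a, Mmp1b and Mmp20 were not bright enough. The promoters below are the last 110 bases before the annotated start, shown because Mmp12 and most of the neighbours whose values follow share a short motif. Capitals mark TGAGTCA, the AP-1 motif, or its reverse complement TGACTCA, and TATAAA, the TATA box. Both strands were searched, and the motifs share no bases in these windows. Sequences are from RefSeq on GRCm38.p6, all on the + strand, at chr9:7272404-7272513 for Mmp13, chr9:7347264-7347373 for Mmp12, chr9:7445712-7445821 for Mmp3, chr9:7502232-7502341 for Mmp10, chr9:7558319-7558428 for Mmp8 and chr9:7691980-7692089 for Mmp7.
Mmp13: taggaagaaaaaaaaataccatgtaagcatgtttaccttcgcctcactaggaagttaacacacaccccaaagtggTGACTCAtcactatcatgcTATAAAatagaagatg
Mmp12: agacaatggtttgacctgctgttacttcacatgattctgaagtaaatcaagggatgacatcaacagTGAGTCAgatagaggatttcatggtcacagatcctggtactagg
Mmp3: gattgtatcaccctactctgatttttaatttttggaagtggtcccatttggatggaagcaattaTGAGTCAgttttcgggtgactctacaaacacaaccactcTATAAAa
Mmp10: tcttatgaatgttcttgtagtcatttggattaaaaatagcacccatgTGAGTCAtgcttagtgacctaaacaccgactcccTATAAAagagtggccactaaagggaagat
Mmp8: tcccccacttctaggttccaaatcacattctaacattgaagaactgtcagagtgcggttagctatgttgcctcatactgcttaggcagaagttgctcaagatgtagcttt
Mmp7: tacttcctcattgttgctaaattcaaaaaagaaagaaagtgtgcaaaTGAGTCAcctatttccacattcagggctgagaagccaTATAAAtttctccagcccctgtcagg

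The AP-1 motif began 35 bases before the start in Mmp13, 44 in Mmp12, 46 in Mmp3, and 63 in both Mmp10 and Mmp7, and these letters were not in the Mmp8 window. The promoter table gives 2 starts each for Mmp12 and Mmp7, and the windows shown belong to the starts that have the motif. The other start of each had neither the AP-1 motif nor TATAAA before it. TATAAA stood in the Mmp13, Mmp3, Mmp10 and Mmp7 windows. Over the table's 32851 promoters, searched on both strands in the 250 bases before the start, TGAGTCA was in 4.46% and TATAAA in 12.4%. Of the 31 members with a promoter in the table, 7 held TGAGTCA in those bases, namely Mmp1a, Mmp1b, Mmp3, Mmp7, Mmp10, Mmp12 and Mmp13. A motif match describes the sequence only.

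Among the neighbours of Mmp12, the collagenases Mmp13 and Mmp8 cut fibrillar collagen, and the stromelysins Mmp3 and Mmp10 cut many matrix proteins and help to activate procollagenases. Mmp10 read -1.99, -3.67 and -4.11 in propolis arrays, against -4.83, -5.98 and -5.01 in vehicle arrays. The groups did not overlap, and 1 of 3 vehicle arrays was not well above background. Its difference was 2.02 with a standard error of 0.60 (limma adjusted p = 0.253), and with normexp background correction it was 0.68. Mmp3 read 5.07, 2.40 and 2.21 in propolis arrays, against 2.24, 2.06 and 2.06 in vehicle arrays, so propolis 1 alone stood far above the rest. Its difference of 1.10 had a limma adjusted p of 0.664. Mmp8, the neutrophil collagenase, read -0.74, -2.67 and -3.15 in propolis arrays, against -3.38, -2.79 and -3.89 in vehicle arrays, and the groups overlapped. Mmp13, the main interstitial collagenase of rodents, read -1.52, -2.95 and -3.74 in propolis arrays, against -1.76, -2.24 and -2.06 in vehicle arrays. Its groups overlapped too, with a difference of -0.72 (limma adjusted p = 0.703). Mmp3, Mmp8 and Mmp13 were named after their values had been seen. Propolis 1 was the highest of the 6 arrays for Mmp3, Mmp8, Mmp10 and Mmp13, and for 8 of 37 members in all, a share to set beside 22.1% of all genes.

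Mmp7, matrilysin, is made by epithelia and in the mouse intestine activates the defensins of Paneth cells. It read -3.46, -6.29 and -5.19 in propolis arrays, against -3.84, -5.08 and 1.12 in vehicle arrays. Vehicle 3 was the high array, and the remaining 5 overlapped. Its difference was -2.38 with a standard error of 1.65 (limma adjusted p = 0.673), and the gene was above background on 2 of 3 propolis arrays. Vehicle 3 was also the highest array for the intestinal list given above and for the Paneth cell list, which read 5.54 there and between -1.52 and 2.49 elsewhere over 4 of 6 genes. Of the intestinal markers, Cdx2 was not above background and Muc2 had no probe. Without vehicle 3 the Mmp7 difference was -0.52, and without both vehicle 2 and vehicle 3 it was -1.13. Mmp1b, a collagenase-like gene of rodents, was above background on vehicle 3 alone, at -1.36 there and between -7.80 and -6.55 elsewhere. The part of intestinal cells in either value was not tested.

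**Figure D3:**
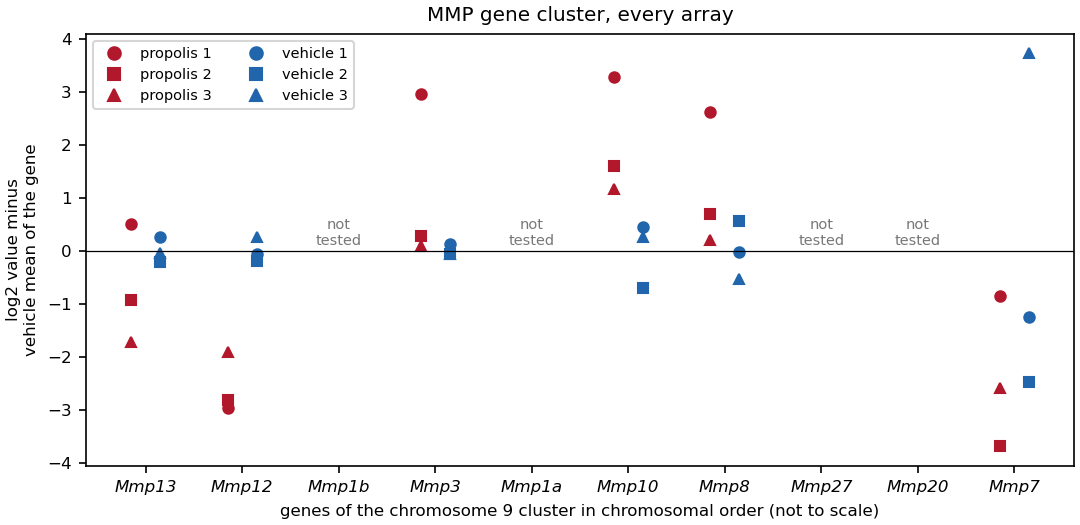
Genes of the chromosome 9 cluster are shown in chromosomal order, not to scale, and each point is an array's log2 value minus the vehicle mean of that gene, with propolis points left of vehicle points. Propolis 1 is the highest array for Mmp3, Mmp10, Mmp8 and Mmp13, vehicle 3 is the highest for Mmp7, and all 3 propolis arrays lie below vehicle for Mmp12.

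The gelatinases cut denatured collagen and the collagen of basement membranes. Mmp2, made mainly by fibroblasts and adipose precursor cells, read 4.72, 5.03 and 5.60 in propolis arrays, against 3.58, 3.76 and 3.97 in vehicle arrays. All propolis arrays were above all vehicle arrays. The difference was 1.34 with a standard error of 0.27 (limma adjusted p = 0.100). On slide 1 it was 1.20 and on slide 2 it was 1.63, and with slide as a block the limma adjusted p was 0.0468, past the threshold. Mmp9, the gelatinase of neutrophils and macrophages, read -0.17, -1.40 and 0.01 in propolis arrays, against -1.45, -1.45 and -0.89 in vehicle arrays. Propolis 2 lay inside the vehicle range, and the difference of 0.74 had a limma adjusted p of 0.571. The neutrophil list, in which 8 of 9 genes were tested and Ly6g had no probe, read -1.85 to -0.98 in propolis arrays and -2.70 to -0.15 in vehicle arrays.

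Membrane-type MMPs are anchored at the cell surface. Mmp14, which cuts fibrillar collagen and activates pro-Mmp2 together with Timp2, read 1.67, 1.67 and 3.08 in propolis arrays, against 0.70, 0.85 and 1.76 in vehicle arrays. Vehicle 3, on slide 2, was above propolis 1 and propolis 2, both on slide 1, so the groups overlapped. Its difference was 1.04 with a standard error of 0.48 (limma adjusted p = 0.482), with 0.89 on slide 1 and 1.32 on slide 2. With slide as a block the limma adjusted p was 0.0597. Mmp15, a second activator of pro-Mmp2, read -3.27, -3.87 and -2.14 in propolis arrays, against -1.80, -2.42 and -0.97 in vehicle arrays. Propolis 3 lay above vehicle 2, and the difference of -1.36 with a standard error of 0.54 had a limma adjusted p of 0.405. Mmp17, Mmp24 and Mmp25, also of this class, differed by 0.37, -0.18 and 0.06. Outside these classes, Mmp23 differed by 0.71, Mmp11 (stromelysin-3) by 0.25 and Mmp19 by -0.18, each with a limma adjusted p of 0.531 or more.

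The procollagen N-proteinases Adamts2, Adamts3 and Adamts14 remove the amino-terminal propeptide that keeps fibrillar collagens from assembling, and Adamts3 also processes the lymphatic growth factor VEGF-C. Adamts3 read -3.41, -2.55 and -2.61 in propolis arrays, against -4.85, -5.44 and -4.70 in vehicle arrays. The groups were apart, and 2 of 3 vehicle arrays were above background. The difference was 2.14 with a standard error of 0.32 and a limma adjusted p of 0.0501, just short of passing. With normexp background correction it was 0.71, with a limma adjusted p of 0.258. Adamts2 read 6.42, 6.81 and 6.60 in propolis arrays, against 5.56, 5.58 and 5.47 in vehicle arrays. The 3 vehicle arrays lay close together and below every propolis array. Its difference was 1.07 with a standard error of 0.18 (limma adjusted p = 0.0628). A second, dimmer Adamts2 probe differed by -0.13, reading -3.06, -2.33 and 0.62 in propolis arrays, against -1.83, -1.60 and -0.96 in vehicle arrays. With the mean of both probes the Adamts2 difference was 0.47. Adamts2 passed in 4 of 22 alternative settings, and in 0 of 6 fits with 1 array left out. Adamts14 differed by 0.12 and its groups overlapped.

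The promoters of Adamts2 and Adamts3, shown as the last 110 bases before the start, are rich in CpG sites where those of the chromosome 9 MMPs are not, and that of Timp1, the inhibitor with the largest difference, is set beside them. Capitals mark GGGCGG, the GC box, or its reverse complement CCGCCC, searched on both strands. They come from RefSeq on GRCm38.p6, at chr11:50601975-50602084 on the + strand for Adamts2, chr5:89883335-89883444 on the - strand for Adamts3 and chrX:20870056-20870165 on the + strand for Timp1.
Adamts2: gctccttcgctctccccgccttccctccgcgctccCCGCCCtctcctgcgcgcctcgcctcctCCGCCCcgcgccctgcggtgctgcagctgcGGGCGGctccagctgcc
Adamts3: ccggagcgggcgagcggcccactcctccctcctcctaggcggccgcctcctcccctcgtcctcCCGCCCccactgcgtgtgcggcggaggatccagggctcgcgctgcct
Timp1: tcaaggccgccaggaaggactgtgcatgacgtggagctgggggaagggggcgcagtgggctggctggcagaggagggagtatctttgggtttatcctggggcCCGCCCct

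The GC box occurred 3 times in the Adamts2 window and 1 time in each of the Adamts3 and Timp1 windows. The promoters of 16 of 31 matched members held it in the 250 bases before the start, against 32.7% of all promoters. In the 250 bases before the start Adamts2 had 34 CpG sites, Adamts3 and Adamts14 had 35 each and Timp1 had 6, where the median promoter of the table had 6. The promoters of the chromosome 9 cluster in the table had 0 to 7.

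Adamts7 and Adamts12 cut the cartilage oligomeric matrix protein. Adamts7 read -1.57, -1.02 and -1.12 in propolis arrays, against -2.27, -2.57 and -2.42 in vehicle arrays. The groups were apart, with a difference of 1.18 and a standard error of 0.21 (limma adjusted p = 0.0783). Adamts7 passed in 3 of 22 alternative settings, and in 0 of 6 fits with 1 array left out. Adamts12 differed by 0.21 and overlapped.

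Hyalectan-cleaving ADAMTS proteases cut versican, aggrecan and related proteoglycans. Adamts15 read 4.29, 2.38 and 2.72 in propolis arrays, against 1.54, 1.34 and 1.26 in vehicle arrays. Propolis 1 was the highest array, and the groups did not overlap. Its difference was 1.75 with a standard error of 0.49 (limma adjusted p = 0.227). Adamts9, which also takes part in transport between cell compartments, read 1.33, 1.28 and 1.20 in propolis arrays, against 0.57, -0.30 and 0.32 in vehicle arrays. Here the propolis arrays lay close together and above all vehicle arrays, with a difference of 1.07 and a standard error of 0.25 (limma adjusted p = 0.155).

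The aggrecanases Adamts1, Adamts4 and Adamts5 did not pass the test. Adamts1, an inhibitor of vessel growth as well as a versican-cutting enzyme, read 3.69, 3.63 and 3.82 in propolis arrays, against 3.60, 2.99 and 2.63 in vehicle arrays. The groups were apart by a narrow margin at vehicle 1, and the difference of 0.64 had a limma adjusted p of 0.440. Adamts4 read 1.75, 1.01 and 0.97 in propolis arrays, against 1.05, 0.05 and 0.11 in vehicle arrays. Vehicle 1 lay above propolis 2 and propolis 3, and the difference was 0.84 (limma adjusted p = 0.443). Adamts5, which lies next to Adamts1 on chromosome 16 with 0 protein-coding genes between them, read 0.30, 0.32 and 0.14 in propolis arrays, against 0.10, 0.59 and 0.21 in vehicle arrays. Its groups overlapped, and the 95% interval of its difference of -0.047 ran from -0.52 to 0.42. The sign of that small difference turned to 0.11 when arrays were scaled to their medians. Adamts8, the neighbour of Adamts15 on chromosome 9, read -2.66, 0.26 and -0.38 in propolis arrays, against -1.68, -1.69 and -1.13 in vehicle arrays. Propolis 1 was its lowest array, and its second probe differed by -0.24, against 0.58 for the brighter one.

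Of the ADAMTS genes with other or less known substrates, Adamts19 had the lowest p. It read -1.91, -0.57 and -0.78 in propolis arrays, against -2.38, -2.23 and -3.30 in vehicle arrays. The groups were apart, with a difference of 1.55 and a standard error of 0.45 (limma adjusted p = 0.240). Adamts10 and Adamts17 are known for roles in fibrillin microfibrils, and both varied widely within the propolis group. Adamts17 read -5.68, -2.33 and -3.19 in propolis arrays, against -4.81, -5.13 and -5.17 in vehicle arrays. Propolis 1 was the lowest array of all 6, and 2 of 3 arrays in each group were above background. Its difference was 1.30 and, with normexp, 0.43. A second, dimmer Adamts17 probe differed by 0.085, and the mean of both probes by 0.69. Adamts10 read -3.08, -1.77 and -0.17 in propolis arrays, against -1.40, -0.89 and -0.69 in vehicle arrays. Propolis 1 was again the lowest and propolis 3 the highest, and the difference of -0.68 went to 0.023 without propolis 1. Adamts6, Adamts16 and Adamts18 differed by 0.24, 0.38 and -0.49, and all 3 overlapped.

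**Figure D4:**
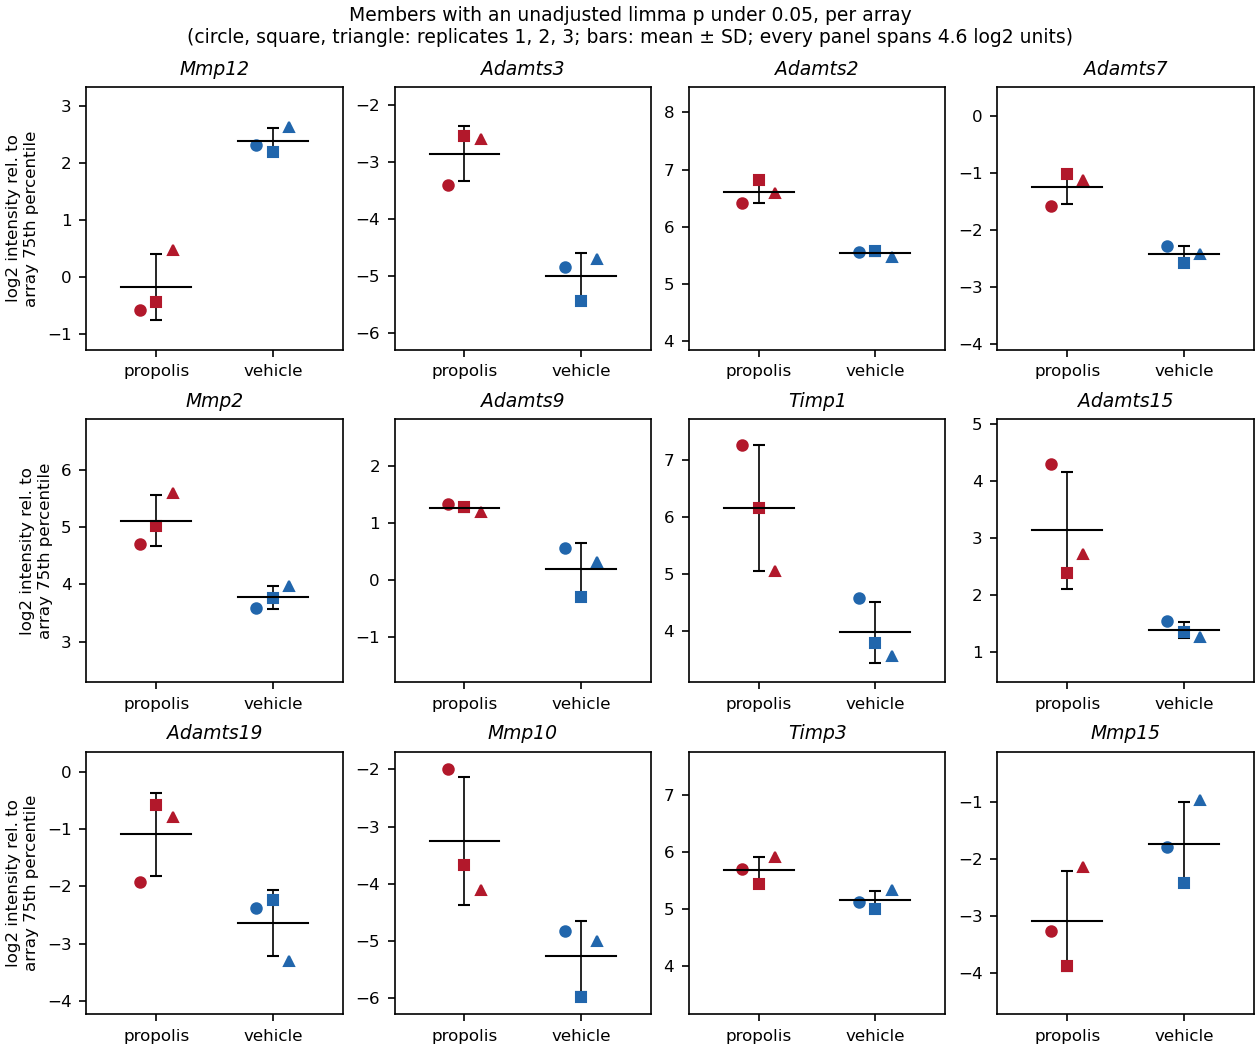
Each panel shows a member with an unadjusted limma p under 0.05, in order of p, with the log2 intensity relative to the 75th percentile of each array, the mean and the SD of 3 arrays, propolis left and vehicle right. Every panel spans the same number of log2 units. In 10 panels the propolis arrays are all above vehicle, for Mmp12 they are all below, and for Mmp15 the groups overlap.

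Over the 10 members that were higher at an unadjusted p under 0.05, the slide 1 differences lay between 0.51 and 2.58 and the slide 2 differences between 0.57 and 2.52. Most mesothelial markers also had higher means in propolis arrays. Their list mean was 1.56 to 2.47 in propolis arrays and -0.32 to 1.57 in vehicle arrays, with 10 of 10 genes tested and 9 higher. Wt1, a transcription factor of mesothelium and visceral fat precursors, rose with a difference of 1.98 (limma adjusted p = 0.0320), and Bnc1, the mesothelial factor basonuclin, rose with a difference of 2.87 (limma adjusted p = 0.0299). The top vehicle value was vehicle 3, where the keratins Krt8, Krt18 and Krt19, which intestinal epithelium also expresses, read 4.74, 4.06 and 5.24. Msln, Upk1b, Bnc1, Wt1 and Lrrn4 did not overlap between groups. Progenitor and fibroblast markers, whose list means given above did not overlap either, had 5 of 10 higher and 5 lower means. At an unadjusted p under 0.05, 4 of them were higher, namely Col1a1, Col3a1, Lum and Pdgfrb, and 0 lower (40.0%, against 7.24% of all genes), while Cd34, Dcn, Dpp4, Ly6a, Pdgfra and Pi16 overlapped. The part of mesothelial cells and fibroblasts in the protease and inhibitor differences was not tested.

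None of the 4 inhibitors passed the test, and their differences pointed both ways. Timp1, a secreted inhibitor that is readily induced in injured tissue, read 7.25, 6.15 and 5.06 in propolis arrays, against 4.58, 3.79 and 3.56 in vehicle arrays. The groups were apart and propolis 1 was the highest. Its difference was 2.18 with a standard error of 0.58 (limma adjusted p = 0.199), the largest positive one among the 37 members. Timp3, which binds to the matrix and also inhibits aggrecanases and the sheddase Adam17, read 5.71, 5.45 and 5.91 in propolis arrays, against 5.12, 5.02 and 5.34 in vehicle arrays. It was apart too, by a small difference of 0.53 with a standard error of 0.20 (limma adjusted p = 0.374). Timp2, the partner of Mmp14 in activating pro-Mmp2, read 7.07, 7.70 and 7.96 in propolis arrays, against 7.82, 8.07 and 7.96 in vehicle arrays. Propolis 1 was its lowest array, and the difference was -0.37 with a standard error of 0.26 (limma adjusted p = 0.678). Timp4, an inhibitor expressed in adipose tissue, read -0.16, -0.32 and 1.48 in propolis arrays, against 1.40, 0.72 and 1.95 in vehicle arrays. Propolis 3 lay inside the vehicle range, and the difference was -1.02 with a standard error of 0.56 (limma adjusted p = 0.568). Adipocyte markers, all 9 tested, had a list mean of 0.47 to 1.51 in propolis arrays and 1.32 to 2.47 in vehicle arrays, and their part in the Timp4 difference was not tested.

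The 8 members that were not tested were Mmp1a, Mmp1b, Mmp16, Mmp20, Mmp21, Mmp28, Adamts13 and Adamts20. Apart from Mmp1b, each was above background on 0 of 6 arrays. Mmp20, the enamel protease, and Adamts13, which cuts von Willebrand factor, act mainly outside fat. Of the 37 tested, 9 had 2 probes that could be tested, and for 5 of these both differed in the same direction. Adamts2, Adamts8, Adamts12 and Adamts14 had probes of opposite sign.

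Genes that work with the family were described from lists of related genes. Of other inhibitors and clearance receptors, 12 of 14 were tested. A2m, alpha-2-macroglobulin, a broad trap for proteases, rose. It read -3.81, -3.37 and -3.98 in propolis arrays, against -7.45, -7.37 and -7.66 in vehicle arrays. No vehicle array was above background, so the fold is a bound. A2m was at least 3.13-fold higher under the processing used here, with a limma adjusted p of 0.00652. The bound sets the propolis mean against the vehicle mean of, on each array, the lowest signal among probes well above background or the probe's own, whichever is higher. With normexp background correction the A2m difference was 0.70, below that bound, and did not pass. Thbs2, a thrombospondin that helps cells take up Mmp2, had a difference of 1.49 (limma adjusted p = 0.0837), and Pcolce2, an enhancer of procollagen processing, one of -0.96 (limma adjusted p = 0.131). In all, 7 of the 12 had a higher mean (58.3%, against 49.6% of all genes) and 5 a lower one. Of the 12, 1 rose and 0 fell, against 0.722% and 0.113% of all genes.

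ADAMTS-like proteins have the ancillary repeats of ADAMTS enzymes without the protease domain. Adamtsl1 rose, reading 2.75, 2.41 and 2.09 in propolis arrays, against 0.30, 0.29 and 0.03 in vehicle arrays. The groups were far apart, with a difference of 2.21 and a standard error of 0.22 (limma adjusted p = 0.0172). Leaving out 1 array at a time, the adjusted p ran from 0.0362 to 0.0965 and passed without propolis 1 and without propolis 3. Thsd4, which promotes fibrillin microfibrils, was above background on no vehicle array and was at least 3.22-fold higher under the processing used here (limma adjusted p = 0.297). With normexp the Thsd4 difference was 0.42, below that bound. Papln, papilin, had a difference of -0.77 (limma adjusted p = 0.568). Of the 6 tested, 3 had a higher mean (50%, against 49.6% of all genes) and 3 a lower one. Of the 6, 1 rose and 0 fell, against 0.722% and 0.113% of all genes.

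Among ADAM and astacin metalloproteases, 15 of 17 were tested. Adam12, a sheddase of mesenchymal precursors, rose. Its readings were -0.13, 0.22 and -0.08 in propolis arrays, against -1.71, -1.98 and -1.72 in vehicle arrays. The groups were apart, with a difference of 1.81 and a standard error of 0.18 (limma adjusted p = 0.0172). Without any 1 array it no longer passed, with an adjusted p between 0.0538 and 0.102. Bmp1, the procollagen C-proteinase, had a difference of 0.94 (limma adjusted p = 0.140), and Adam8, a protease of myeloid cells, one of -1.32 (limma adjusted p = 0.300). Here 7 of the 15 had a higher mean (46.7%, against 49.6% of all genes) and 8 a lower one. Of the 15, 1 rose and 0 fell, against 0.722% and 0.113% of all genes.

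Of the activators and inducers of the proteases, 18 of 19 were tested, 0 passed, and 12 had a lower mean. The share with a higher mean was 33.3%, against 49.6% of all genes. At an unadjusted p under 0.05, 2 were higher (11.1%, against 7.24% of all genes) and 7 lower (38.9%, against 4.48%). Cpa3, a mast cell carboxypeptidase, had a difference of -1.10 (limma adjusted p = 0.129), Ctsg, cathepsin G of neutrophils and mast cells, one of -1.35 (limma adjusted p = 0.164), and Plat, the tissue plasminogen activator, one of 0.93 (limma adjusted p = 0.149). The mast cell list read -0.40 to 0.35 in propolis arrays and 0.68 to 0.83 in vehicle arrays. It shares 4 genes with the related lists, Cpa3, Cma1, Tpsb2 and Mcpt4, and all of them are among the 7 lower genes. The rest of the 7 were Ctsg, Pcsk6 and Plau. The part of mast cells in these lower values was not tested.

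Substrates of the proteases mostly had higher means in propolis arrays, and 0 passed the test. Of 22 matrix genes listed, 19 were tested, 13 had a higher mean (68.4%, against 49.6% of all genes), and the median difference was 0.49. At an unadjusted p under 0.05, 7 were higher (36.8%, against 7.24% of all genes) and 0 lower (against 4.48%). Some of these genes are also fibroblast or other cell type markers. Without them 11 of 15 had a higher mean, and 5 of 15 were higher at an unadjusted p under 0.05 (33.3%). Col7a1, the collagen of anchoring fibrils, read 0.29, 1.15 and 1.42 in propolis arrays, against -1.14, -1.21 and -0.98 in vehicle arrays. Its groups were apart, with a difference of 2.06 and a limma adjusted p of 0.0516. Col5a1, a collagen that sets fibril diameter, had a difference of 1.26 (limma adjusted p = 0.0853), and Col1a2, a chain of type I collagen, one of 0.74 (limma adjusted p = 0.213).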

How the data were processed

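Total RNA of the stromal vascular fraction of mesenteric fat was measured on 6 arrays, 3 propolis and 3 vehicle, with 0.1 µg of RNA labelled, per the labels' protocols. Spots were read with Agilent Feature Extraction 10.7.3.1, per the submitters' processing notes and the file headers. The deposited processed signal is a background-corrected intensity in arbitrary units, and the deposited series table holds log2 values near a 75th percentile of 0. The scale and centring of that table were found by setting it against the scanner values, and it served as an alternative.

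Intensities were converted to log2, less the array's 75th percentile. Spots called non-uniform were left out and replicate spots averaged. A probe entered if well above background on at least 3 of 6 arrays, as 34786 of 55681 did, and each gene was represented by its brightest such probe. Symbols came from RefSeq accessions (GRCm38.p6), and 28446 probes had none. Groups were compared over 25777 genes and transcripts with limma 3.58.1 in R 4.3.3 (lmFit and eBayes, no block), with Benjamini-Hochberg adjustment at 0.05. Prior degrees of freedom were 2.36. The procedure was tested on simulated data.

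Per-array values are given for members with an adjusted or an unadjusted p under 0.05, the TIMPs, Mmp2, Mmp9, Mmp14, Adamts1, Adamts4, Adamts5 and the 4 members of largest within-group range, and the 3 genes of lowest p are named from each related list. Members follow a symbol rule, but the family and the lists were picked with earlier results of these data known. Alternatives covered background correction, scaling, filters, the choice of probe, the variance model, array weights, slide and replicate blocks and leaving out arrays. Promoters were taken from a RefSeq table, which held 31 members.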

Additional observations from a re-analysis of the deposited data

How the results depend on the processing

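The count of 215 genes and 1 member past the threshold depended on the settings. The number of members called was 2 with normexp on the median signals, 3 with quantile normalization and 5 with median scaling. It was 3 with trend and robust variance, and 2 with slide as a block. At a limma adjusted p under 0.1 it was 4, and with no filter on dim probes 0. Apart from Mmp12, the members called in these settings were Adamts2, Adamts3, Adamts7 and Mmp2, each higher in propolis arrays. With the mean of a gene's probes 1 member was called, Adamts3, also higher. Counts of genes over 1.5 times away were 106 with no filter, 526 at an adjusted p under 0.1 and 3231 with array weights, which called 11 members. With median scaling the median difference of all genes was 0.15, against -0.0041 under the main settings, and that of the members 0.69. Slide 1 alone called 0 genes and 0 members by limma, with 5856 genes at an unadjusted p under 0.05. Without vehicle 2 and vehicle 3 the counts were 0 and 0, with 1362 genes at an unadjusted p under 0.05. Leaving out 1 array gave 11 to 94 genes and 0 to 1 members, fewest without propolis 2 or vehicle 2. With each gene's group mean taken off, same-numbered propolis and vehicle samples correlated at 0.036, 0.291 and 0.135. Thus not every pair was over 0.1, and not every sample matched its own number best. The numbers were not taken to pair samples beyond the slides they share. With a replicate block 73 genes and 0 members passed. Mmp12 kept its sign under all 22 alternatives, between -3.19 and -2.36, and passed in 12 of them. Its call was lost with no filter, with the mean of its probes, on slide 1 alone, with the replicate block, without vehicle 2 and vehicle 3, and without 1 array other than propolis 3. Adamts5 turned positive with median scaling (0.11), with array weights (0.13), without vehicle 2 and vehicle 3 (0.15), without propolis 3 (0.0092) and without vehicle 2 (0.10), and Adamts10 and Adamts8 turned without 1 array. Leaving out 1 array at a time, Adamts5 ran from -0.15 to 0.10, Adamts10 from -1.43 to 0.023 and Adamts8 from -0.018 to 1.44. Adamts6, Adamts12, Adamts14, Adamts16, Mmp19, Mmp24 and Mmp25 also took both signs over the alternatives. The cause was not tested, beyond the smaller number of arrays where some were left out. Dim members such as Adamts3, Mmp10, Mmp7 and Adamts17 are limited by signal over background.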
